A study of Mus musculus with 8 samples.

Results

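The transcripts described here encode the signalling chains of the B cell receptor and the surface and nuclear proteins that work with it on mature B cells: Cd79a, Cd79b, Ms4a1, Cd22, Blk, Cr2, Fcer2a, Cxcr5 and Pax5. They were picked by gene name, with earlier results of these data known, and make up 9 of the 54532 genes in the count table. All 9 passed the filter on low counts, as did 17138 genes in all. The study sequenced poly(A) RNA from whole lungs of CC-LR mice at 14 weeks of age, 4 Control and 4 treated with TTI-101, a small-molecule inhibitor of STAT3 signalling given from 10 weeks of age for 4 weeks. All 8 mice, Control included, carried the CC-LR genotype, in which Cre expressed from the club cell secretory protein locus recombines a Lox-Stop-Lox allele of mutant K-ras, so the oncogene is active in airway and alveolar epithelium and not by design in B cells. Mice of both sexes were used, the labels give no sex for a library, and the route and dose for the sequenced mice were not given in the sources used here.

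The B cell receptor is a membrane immunoglobulin that binds antigen but has almost no cytoplasmic tail of its own. Signals pass through the CD79A and CD79B heterodimer, whose tails carry a paired-tyrosine sequence, the immunoreceptor tyrosine-based activation motif (ITAM). Kinases of the Src family such as LYN and BLK phosphorylate these tyrosines and SYK then docks there. Coreceptors set the threshold: the complex that holds CR2 and CD81 lowers it, and CD22 raises it through inhibitory motifs (ITIMs) that recruit phosphatases. CXCR5 directs B cells along CXCL13 into follicles, and PAX5 maintains B cell identity and drives many of these genes. In tumor-bearing lung, B cells lie in the interstitium and, in some settings, in tertiary lymphoid structures.

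The coding stretches of the motifs through which these receptors signal are shown for the activating chains and the inhibitory receptor. Each motif was searched only in its own genes, the ITAM in Cd79a and Cd79b and the ITIM in Cd22. The stretches were found in GENCODE M21 transcripts on GRCm38 and are written 5′ to 3′ on the coding strand. The tyrosine codons of the motif are in capitals. The ITAM of Cd79a (Cd79a-201) lies within chr7:24901296-24901469 on the plus strand, across exons 4 and 5 of 5, and that of Cd79b (Cd79b-201) within chr11:106311867-106312012 on the minus strand, across exons 5 and 6 of 6.
Cd79a ITAM: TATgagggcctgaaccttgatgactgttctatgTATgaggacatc
Cd79b ITAM: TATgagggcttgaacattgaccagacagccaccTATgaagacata
Both stretches span 45 coding bases, of which 31 are the same, and 10 of the 15 encoded amino acids are identical, the 2 tyrosines included. Cd22 (Cd22-201, minus strand of chromosome 7) held 4 matches to an ITIM consensus in its last 150 codons, at chr7:30867494-30867511 in exon 12 of 14, chr7:30867033-30867050 in exon 13, and chr7:30866600-30866617 and chr7:30866540-30866557 in exon 14, each 18 bases around 1 tyrosine codon.
Cd22 ITIM 1: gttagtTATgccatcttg
Cd22 ITIM 2: gtcactTACtcggtgata
Cd22 ITIM 3: atccatTACtcagagctg
Cd22 ITIM 4: gtagacTATgtgaccctc

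Library totals ranged from 16075855 to 26873509 counts, with Control 1 the deepest, and member counts per library from 23 (Cr2 in Control 4) to 2533. Control 4 stood apart from the other 7 libraries before any member was considered: it lay at 101 on the first principal component, which held 45.2% of the variance, against -39.3 to 17.9 for the others, and 5.56% of its counts were mitochondrial against 2.01 to 2.85%. Levels are given in CPM, the counts of a gene relative to the TMM-scaled total of its library. Xist divided the libraries, at 400.2 to 450 CPM in replicates 1 and 2 of both groups and at most 2.11 CPM in replicates 3 and 4. The lung label was checked with 10 epithelial genes, including Scgb1a1 and Sftpc, which together reached 40519 to 100324 CPM. Stat3 transcript, whose protein is the target of the drug, measured 257 ± 30.0 CPM in Control and 244 ± 26.8 CPM in TTI-101 (SD, n = 4 each), a value that does not check the label, since the drug acts on the protein. The labels name no mouse for a library, so each p measures the spread between these libraries.

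**Figure D1:**
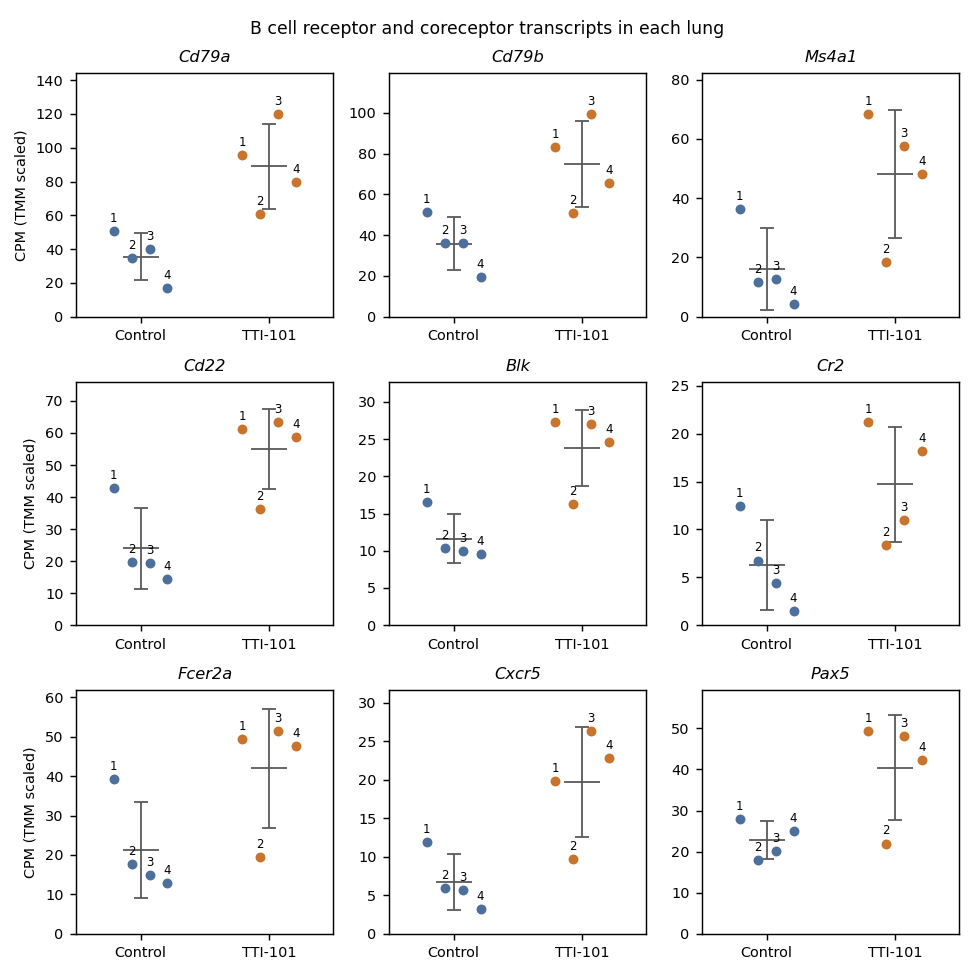
CPM (y axis, from 0, different in each panel) of the 9 genes in each Control (blue) and TTI-101 (orange) library, with replicate numbers beside the points and the group mean ± SD (n = 4) in grey. The group mean was higher in TTI-101 in every panel, TTI-101 2 was the lowest treated library throughout, and Cd79a was the 1 gene whose groups did not overlap.

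All 9 transcripts had a higher mean in TTI-101-treated than in Control lungs, by log2 fold changes of 0.83 (Pax5) to 1.56 (Ms4a1) with a median of 1.19, against a median of 0.003 over all genes tested. In edgeR's quasi-likelihood test all 9 were under an unadjusted p of 0.05 and higher in TTI-101, where 3.02% of all genes were, and 6 were under 0.01, where 0.391% of all genes were. None passed the Benjamini-Hochberg adjustment over all genes in edgeR, which called 0 of 17138 genes (0%, against 1132 at an unadjusted p under 0.05), and the adjusted p was 0.657 for each of the 9. DESeq2 called 4 of 31769 genes (0.0126%) and none of the 9, with adjusted p of 0.112 to 0.864, and limma-voom called 0, with adjusted p of 0.653 for the lowest of the 9. In whole tissue, more B cells and more RNA of these genes per B cell cannot be told apart.

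Cd79a (ENSMUSG00000003379, chr7:24897381-24902197) and Cd79b (ENSMUSG00000040592, chr11:106311341-106314762) encode the signalling heterodimer. Cd79a was measured at 50.5, 34.6, 39.9 and 17.1 CPM in Control 1 to 4 and at 95.5, 60.6, 120.1 and 79.4 CPM in TTI-101 1 to 4. The lowest treated library was above the highest Control library, as it was for 1.53% of all genes tested. The log2 fold change was 1.32 (SE 0.31, approximate 95% interval 0.71 to 1.93), with an adjusted p of 0.657 in edgeR. The two-sided exact permutation test gave p = 0.0286, the smallest that 4 against 4 libraries allow. The 95% intervals here and below rest on the SE and a normal approximation, so they are too narrow for so few libraries. Cd79b followed with 51.2, 35.9, 36.3 and 19.7 CPM in Control and 83.3, 51.0, 99.5 and 65.7 CPM in TTI-101, and the groups met only at Control 1 and TTI-101 2, which were close to equal. Its log2 fold change was 1.06 (SE 0.29, exact permutation p = 0.0571).

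Blk (ENSMUSG00000014453, chr14:63372836-63417037) encodes the Src-family kinase that is largely restricted to B cells and acts at the ITAMs shown above. It was present at 16.5, 10.3, 9.93 and 9.59 CPM in Control and at 27.2, 16.3, 27.1 and 24.6 CPM in TTI-101. Control 1 stood away from the other 3 Control libraries, just above TTI-101 2, and the remaining treated libraries were all higher. The log2 fold change was 1.03 (SE 0.24, exact permutation p = 0.0571), and its unadjusted edgeR p of 0.0014 was the lowest of the 9.

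Among the coreceptors and surface regulators, Cd22 (ENSMUSG00000030577, chr7:30865402-30880342), the inhibitory sialic acid-binding receptor, was measured at 42.7, 19.7, 19.4 and 14.5 CPM in Control and at 61.2, 36.3, 63.3 and 58.9 CPM in TTI-101. The treated libraries other than TTI-101 2 lay close together and above all Control libraries. Its log2 fold change was 1.19 (SE 0.32, exact permutation p = 0.0571). Cr2 (ENSMUSG00000026616, chr1:195136811-195176716), the complement receptor CD21, had the lowest level of the 9, at 12.5, 6.75, 4.38 and 1.47 CPM in Control and 21.2, 8.41, 11.0 and 18.2 CPM in TTI-101. The Control libraries spanned 8.48-fold, and Control 1 exceeded 2 of the 4 treated libraries. Cr2 accordingly had a wide error, with a log2 fold change of 1.22 (SE 0.53, approximate 95% interval 0.18 to 2.25, exact permutation p = 0.0857).

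Ms4a1 (ENSMUSG00000024673, chr19:11249675-11266241) encodes CD20, a membrane protein of mature B cells that associates with the receptor. It was measured at 36.3, 11.5, 12.6 and 4.41 CPM in Control and at 68.4, 18.5, 57.4 and 48.2 CPM in TTI-101. This was the largest fold change of the 9, with uneven groups in which Control libraries spanned 8.22-fold and treated libraries 3.70-fold. The log2 fold change was 1.56 (SE 0.57, approximate 95% interval 0.45 to 2.67, exact permutation p = 0.0571). Fcer2a (ENSMUSG00000005540, chr8:3681737-3694175), which encodes the low-affinity IgE receptor CD23 of follicular B cells, was at 39.2, 17.7, 14.9 and 12.9 CPM in Control and at 49.4, 19.5, 51.5 and 47.7 CPM in TTI-101. TTI-101 2 lay among the Control libraries for this gene, and the other 3 treated libraries were close together above them. Its log2 fold change was 0.98 (SE 0.39, exact permutation p = 0.0571).

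Cxcr5 (ENSMUSG00000047880, chr9:44511787-44561877), the follicular homing receptor, was at 11.9, 5.98, 5.71 and 3.26 CPM in Control and at 19.8, 9.73, 26.4 and 22.8 CPM in TTI-101. Again Control 1 overlapped TTI-101 2 alone. The log2 fold change was 1.54 (SE 0.40, exact permutation p = 0.0571). The gene overlaps Bcl9l (chr9:44482825-44511896) on the opposite strand, but only at the ends of the 2 genes, chr9:44511787-44511896. Over its whole length Bcl9l had 20564 counts in the 8 libraries, against 2115 for Cxcr5. The strand setting of the counting is not given in the sources used here. A share of Bcl9l reads from that short stretch in the Cxcr5 values therefore cannot be told apart. Bcl9l itself had a log2 fold change of 0.27 (SE 0.16). Pax5 (ENSMUSG00000014030, chr4:44524757-44710487), the B cell commitment factor, was at 28.0, 17.9, 20.2 and 25.1 CPM in Control and at 49.4, 21.98, 48.3 and 42.2 CPM in TTI-101. It had the most even Control libraries of the 9, and Control 4, the lowest Control library for the other 8 genes, was the second highest here. Its log2 fold change of 0.83 (SE 0.26, exact permutation p = 0.0857) was the smallest of the 9.

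**Figure D2:**
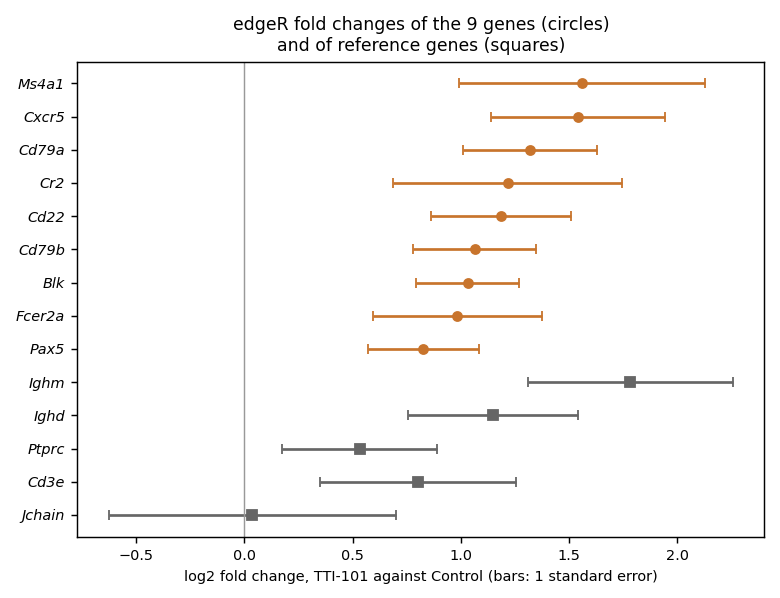
edgeR log2 fold change of TTI-101 against Control (x axis) with 1 standard error for the 9 genes (circles, ordered by size) and for Ighm, Ighd, Ptprc, Cd3e and Jchain (squares). The 9 genes lay between 0.83 and 1.56, Ighm at 1.78, Ptprc at 0.53 and Jchain at 0.04.

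The 9 genes ranked the libraries in much the same way. Within Control, replicate 1 was the highest library for 9 of 9 genes and replicate 4 the lowest for 8 of 9, the exception being Pax5, which was lowest in replicate 2. Within TTI-101, replicate 2 was the lowest for 9 of 9 genes, and replicates 1 and 3 shared the highest place with 4 and 5 genes. Control 1 lay above TTI-101 2 for 8 of 9 genes, all but Cd79a. Cr2 also overlapped through TTI-101 3 and Pax5 through Control 4. With Control 1 left out, the groups did not overlap for 8 of the 9 genes, as for 5.43% of all genes, and with TTI-101 2 left out for 8 of 9, as for 7.63% of all genes. Both libraries were singled out because they made the overlap, so this describes where it lay and adds no support. Without Control 4, the library apart from the rest, all 9 log2 fold changes were still positive with a median of 0.96, and 7 were under an unadjusted p of 0.05 and higher, where 1.92% of all genes were. Against the mean of the other 8 members, each member's log2 CPM correlated over the 8 libraries with r of 0.823 (Pax5) to 0.990 (Cxcr5), and after removing the group means with r of 0.605 (Pax5) to 0.983 (Ms4a1), values that rest on shared libraries and are given as a description.

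**Figure D3:**
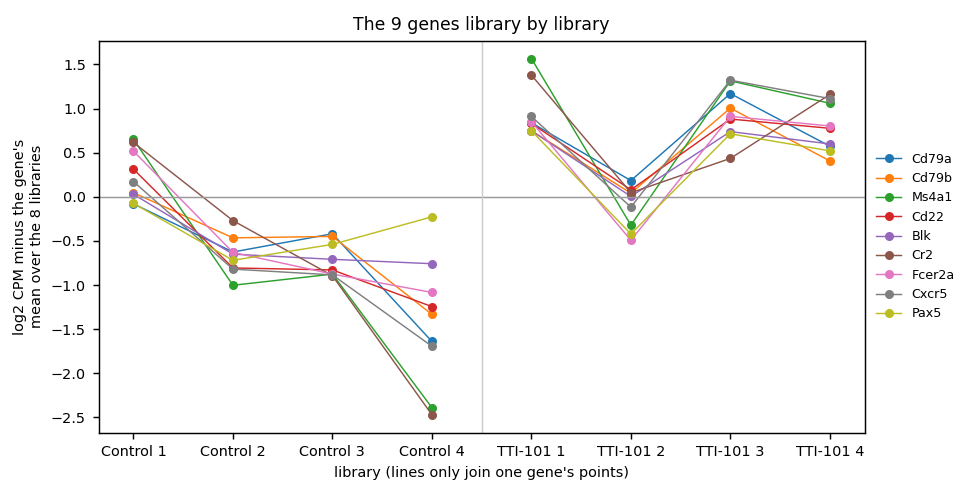
log2 CPM of each of the 9 genes minus its mean over the 8 libraries (y axis) by library (x axis), 1 colour per gene, with lines joining the points of a gene within a group. The genes varied together from library to library, with Control 4 lowest for all but Pax5 and TTI-101 2 lowest among treated libraries.

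The groups were also compared within the libraries with low Xist and within those with high Xist. In replicates 3 and 4, where Xist was low, both treated libraries were above both Control libraries for 9 of 9 genes, as for 24.5% of all genes, and the median ratio of the group means was 3.56. In replicates 1 and 2, where Xist was high, this was so for 1 of 9 genes and 8.65% of all genes, and the median ratio was 1.56. Control 4 is among the former. A test of the difference between the pairs, chosen after these values were seen, gave an interaction of -1.77 (Ms4a1) to -0.36 (Pax5) on the log2 scale. It was under an unadjusted p of 0.05 in edgeR for 2 of the 9, Cxcr5 and Fcer2a, against 6.47% of all genes, and the adjusted p of the 9 was 0.745 to 0.929, so no difference between the pairs was shown for any of them. The library names carry 1 letter for replicates 1 and 2 and another for 3 and 4 in each group, so sex and any step shared by libraries of 1 letter cannot be told apart.

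Levels were compared between genes per kilobase of the gene length in the table. In Control the order was Cd79b at 25.0 ± 8.996 CPM per kilobase, Cd79a at 24.4 ± 9.57, Fcer2a at 6.85 ± 3.93, Cd22 at 4.77 ± 2.51, Blk at 4.30 ± 1.23, Ms4a1 at 2.62 ± 2.24, Pax5 at 2.58 ± 0.52, Cxcr5 at 2.01 ± 1.10 and Cr2 at 0.773 ± 0.58 (SD, n = 4). The heterodimer stood at the top, but the ranges of each gene and the next, pooled over libraries, overlapped all the way down. Within libraries, Cd79a was above Fcer2a, Fcer2a above Cd22, Blk above Ms4a1 and Cxcr5 above Cr2 in 4 of 4. The other steps held in 3 of 4 Control libraries, except Ms4a1 over Pax5, which held in 1. In TTI-101 it was Cd79a at 61.0 ± 17.3 CPM per kilobase, Cd79b at 52.3 ± 14.7, Fcer2a at 13.6 ± 4.89, Cd22 at 10.9 ± 2.48, Blk at 8.82 ± 1.91, Ms4a1 at 7.78 ± 3.46, Cxcr5 at 5.91 ± 2.15, Pax5 at 4.57 ± 1.44 and Cr2 at 1.81 ± 0.74. Cd79a and Cd79b exchanged places, as did Pax5 and Cxcr5, and of the neighbours in this order only Cd79b and Fcer2a had ranges that did not overlap. Each gene was above the next in 4 of 4 treated libraries, except Fcer2a over Cd22 and Blk over Ms4a1, in 3 of 4.

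The share of these transcripts within the leukocyte signal was taken as the ratio of each gene to Ptprc, which encodes CD45 of all leukocytes. Ptprc itself was at 124 ± 57.7 CPM in Control and 180.0 ± 69.5 CPM in TTI-101 (log2 fold change 0.53, SE 0.36, adjusted p in edgeR not under 0.05). It was highest among Control libraries in Control 1 (207 CPM) and lowest among treated libraries in TTI-101 2 (89.4 CPM). Control 1 lay above TTI-101 2 in CPM for 8 of the 9 genes, and dividing by Ptprc lowers Control 1 against TTI-101 2. Per 100 Ptprc counts, Ms4a1 gave 17.6, 11.0, 11.1 and 6.11 counts in Control and 31.0, 20.7, 35.1 and 19.6 in TTI-101. Its log2 ratio was higher by 1.27 in TTI-101, and the groups did not overlap (exact permutation p = 0.0286). Cxcr5 gave 5.75, 5.70, 5.02 and 4.51 counts per 100 in Control and 8.97, 10.9, 16.1 and 9.28 in TTI-101, a log2 difference of 1.07 with no overlap. Control 1 and Control 4, far apart in CPM of Cxcr5, lay closer together on this scale.

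Cd22, Cr2 and Fcer2a also had no overlap between groups relative to Ptprc, with log2 differences of 0.74, 0.96 and 0.50, so that 5 of the 9 genes reached the smallest two-sided exact permutation p of 0.0286, unadjusted over the 9 tests. Of all genes set relative to Ptprc, 0.263% were higher without overlap. Cd79a and Cd79b differed by 0.84 and 0.56 with exact permutation p of 0.0857 and 0.143. TTI-101 4 was the lowest treated library for both. Blk differed by 0.50 (exact permutation p = 0.114) and Pax5 by 0.24 (exact permutation p = 0.486), where Control 4 lay above every treated library. The median difference over the 9 genes was 0.74, and 0.65 without Control 4. Relative to Cd3e of T cells it was 0.33, and only Ms4a1 had no overlap there, as for 0.0408% of all genes, with a log2 difference of 0.85 (exact permutation p = 0.0286), while Pax5 differed by -0.18.

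**Figure D4:**
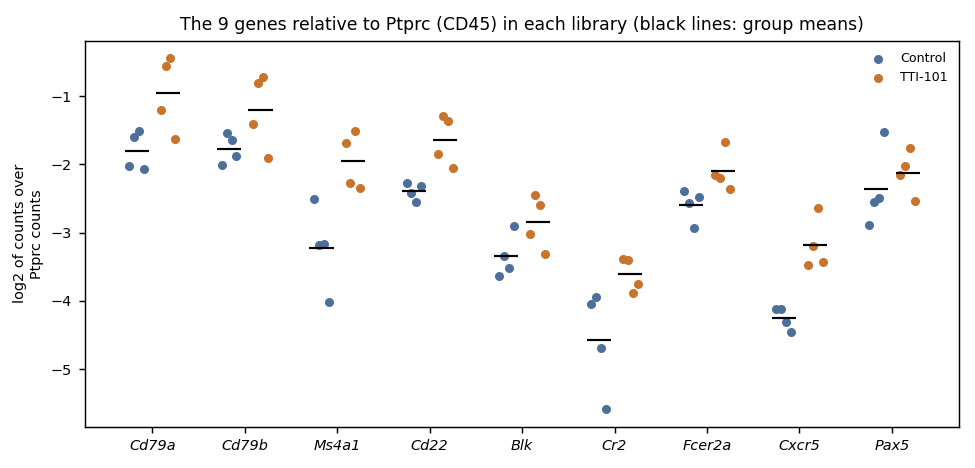
log2 ratio of the counts of each gene to those of Ptprc (y axis) in each Control (blue) and TTI-101 (orange) library, with group means as black lines. Groups were separate for Ms4a1, Cd22, Cr2, Fcer2a and Cxcr5 and overlapped for Cd79a, Cd79b, Blk and Pax5.

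The other members were also set relative to Cd79a. The log2 ratio of Cd79b to Cd79a was 0.02, 0.05, -0.14 and 0.20 in Control 1 to 4 and -0.20, -0.25, -0.27 and -0.27 in TTI-101 1 to 4. The partner chain was thus lower relative to Cd79a in every treated library, by 0.28 on the log2 scale (exact permutation p = 0.0286, 1 of 8 such ratios, unadjusted). Cd79a itself was higher in TTI-101, and 56.7% of all genes were lower without overlap relative to it, so the count of 1 in 8 is not particular to these genes. The other 7 ratios overlapped between groups, with exact permutation p of at least 0.171. For Pax5 the log2 ratio was -0.85, -0.95, -0.98 and 0.55 in Control and -0.95, -1.46, -1.31 and -0.91 in TTI-101, with Control 4 apart from the rest.

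The genes most like the 9 were those whose log2 CPM correlated best with the mean z-score of the members over the 8 libraries, which share depth and composition, so the values are descriptive. They included H2-Ob (r = 0.991), a class II chaperone subunit of B cells, Acap1 (0.989), Ighd (0.988), Tnfrsf13b (0.987), which encodes the BAFF and APRIL receptor TACI, Fcmr (0.984), the receptor for IgM, Ets2 (0.979) and Slamf1 (0.978). With the group means removed the correlations were 0.944 (Slamf1) to 0.992 (Ighd). In all, 68 of 17129 genes other than the members had an r above 0.95.

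Of 6 immunoglobulin constant-region genes, whose counts cannot separate membrane from secreted immunoglobulin, 4 were higher at an unadjusted p under 0.05 in edgeR and none lower, with a median log2 fold change of 0.94. Ighm was at 219, 98.3, 98.8 and 38.6 CPM in Control and at 327, 659, 341 and 243 CPM in TTI-101, with no overlap between groups (log2 fold change 1.78, SE 0.47). Unlike the 9 genes, it was highest in TTI-101 2, as were Igkc at 489 CPM and the plasma cell gene Jchain at 99.0 CPM. Igkc was named after its values were seen. Ighd, of naive B cells, was at 49.6 ± 28.3 CPM in Control and 110 ± 40.9 CPM in TTI-101 (SD, n = 4), a log2 fold change of 1.15 (SE 0.39), and was low in TTI-101 2 like the 9. The lambda chains Iglc2 and Iglc3 had log2 fold changes of 1.07 and 0.80. As for all lists below, no gene passed the adjustment in edgeR or DESeq2. The counts in these lists stand beside 1132 of all 17138 genes under an unadjusted p of 0.05 in edgeR, in either direction. Of those, 518 were higher in TTI-101, 3.02% of all genes, and 1.53% of all genes were higher without overlap.

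**Figure D5:**
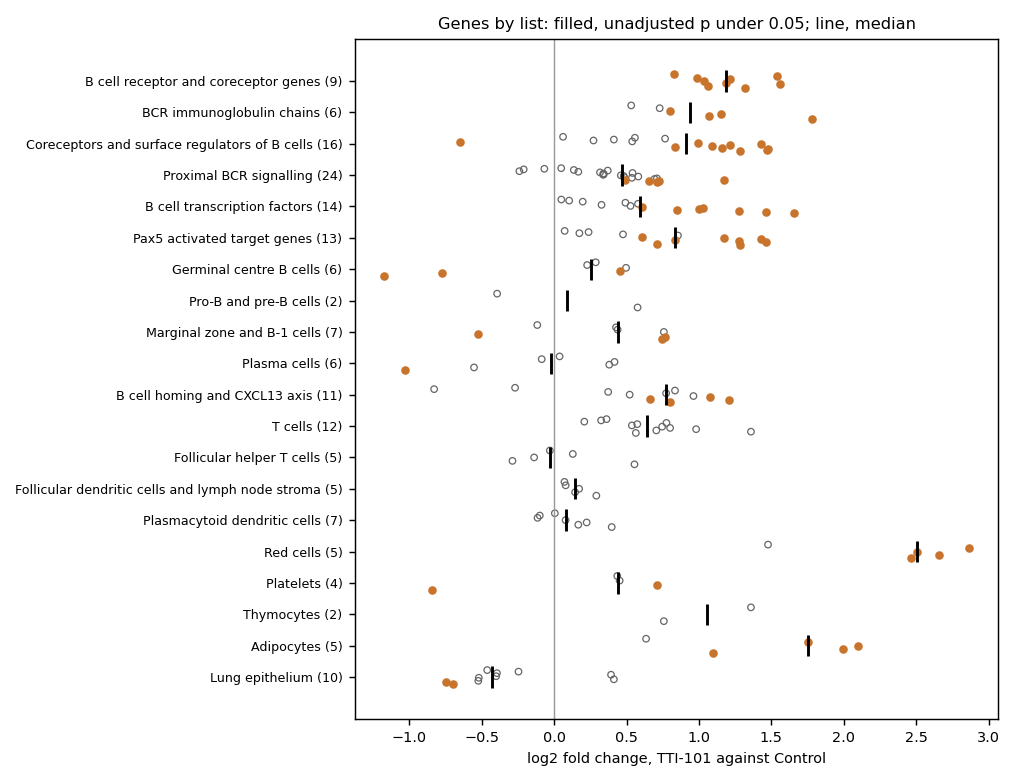
edgeR log2 fold change of TTI-101 against Control (x axis) for each tested gene of the 9 members and of the 19 lists (y axis, number tested in brackets), filled where the unadjusted p was under 0.05, with the list median as a black line. The medians of the immunoglobulin, coreceptor, signalling and transcription factor lists lay right of 0, the plasma cell, follicular helper and plasmacytoid dendritic cell medians near 0, and red cell and adipocyte genes furthest right.

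Of 16 further coreceptors and surface regulators, 9 were higher and 1 lower at an unadjusted p under 0.05, with a median log2 fold change of 0.91. Tnfrsf13c, the BAFF receptor that sustains mature B cells, was at 3.84 ± 2.00 against 10.7 ± 3.27 CPM and did not overlap between groups. Fcmr and the tetraspanin Cd37 had log2 fold changes of 1.48 and 1.16. Cd24a, also abundant in lung epithelium, was the lower one, at 647 ± 218 CPM in Control and 412 ± 111 CPM in TTI-101, and was named after its value was seen.

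Downstream of the receptor, 5 of 24 proximal signalling genes were higher at an unadjusted p under 0.05 and none lower, with a median log2 fold change of 0.47. The adaptor Blnk was at 10.6 ± 0.50 CPM in Control and 17.4 ± 4.03 CPM in TTI-101 without overlap (log2 fold change 0.71, SE 0.20). Syk, the kinase that binds the phosphorylated ITAMs, differed by 0.66 (SE 0.24) and Prkcb by 0.72 (SE 0.27) on the log2 scale. The scaffold Bank1 was at 9.04 ± 6.59 CPM in Control and 20.6 ± 8.12 CPM in TTI-101. Many genes of this list are shared with myeloid cells and T cells.

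Among 14 transcription factors of the B lineage, 7 were higher at an unadjusted p under 0.05 and none lower, with a median log2 fold change of 0.59. The coactivator Pou2af1 was at 10.4 ± 8.43 CPM in Control and 33.1 ± 8.99 CPM in TTI-101, a log2 fold change of 1.66 (SE 0.49). Spib, Ikzf3 and Irf4 differed by 1.46, 1.28 and 0.85. Of 13 genes that PAX5 is known to activate, a list that shares Blnk, Spib, Ikzf3, Bank1 and others with those above, 8 were higher and none lower at that p, with a median of 0.83.

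The lists of B cell stages were less uniform. Of 8 germinal centre genes, 6 were tested, of which 1 was higher and 2 were lower at an unadjusted p under 0.05: Gcsam by -1.17 (SE 0.33) and Basp1 by -0.78 (SE 0.28), while S1pr2 differed by 0.45. Rgs13 had 0 to 3 counts per library. Of 8 pro-B and pre-B genes, 2 were tested and neither was under 0.05, with Rag1 at 0 to 8 counts, Rag2 at 0 to 3 and Igll1 at 1 to 9. Of 7 marginal zone and B-1 genes, Dtx1 and S1pr3 were higher (0.75 and 0.76, both without overlap) and Bhlhe41 lower (-0.53) at that p. S1pr3 was at 47.7 ± 19.5 CPM in Control and 81.1 ± 9.72 CPM in TTI-101. Of 7 plasma cell genes, 6 were tested, with a median of -0.02. Of these, 1 was lower (Derl3, -1.03) and none higher at that p. Jchain was at 43.4 ± 35.3 CPM in Control against 44.7 ± 39.8 CPM in TTI-101. Sdc1 had the highest level of this list, at 562 ± 180 CPM in Control and 383 ± 107 CPM in TTI-101. The cells that the counts in this paragraph came from were not tested, so none of these lists is a reading of its B cell stage alone.

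Homing genes of the CXCR5 and CXCL13 axis and its neighbours were higher at an unadjusted p under 0.05 for 4 of 11 tested and lower at that p for none, with a median log2 fold change of 0.77. Ltb, which lymphocytes use to sustain follicles, was at 23.0 ± 4.34 CPM in Control and 40.1 ± 10.9 CPM in TTI-101 without overlap (log2 fold change 0.80, SE 0.21), Ccr7 differed by 1.21 (SE 0.37) and Gpr183 by 0.66. Cxcl13, the ligand of CXCR5, was at 8.75 ± 1.59 CPM in Control and 7.28 ± 5.08 CPM in TTI-101, a log2 fold change of -0.27 (SE 0.41), and was named after its value was seen. Genes of follicular dendritic cells and lymph node stroma had 0 of 5 tested under 0.05 and a median of 0.15, with Madcam1 at 0 to 2 counts and Glycam1 at 0 to 4.

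Markers of other cells were read beside these results, and their part in them was not tested. All 12 T cell genes had a positive fold change, with a median of 0.64, but 0 were under 0.05 in edgeR (3 in DESeq2), and their summed level was 48.9 to 160.1 CPM in Control and 96.5 to 179 CPM in TTI-101. Follicular helper T cell genes had a median of -0.03 and plasmacytoid dendritic cell genes one of 0.08, with 0 of 5 and 0 of 7 under 0.05. Of 7 thymocyte genes 2 were tested, Cd8b1 and Cd1d1, both with a positive fold change and neither under 0.05, with a median of 1.06, while Ptcra was at 0 to 1 and Psmb11 at 0 to 2 counts. Platelet genes had 1 of 4 tested higher and 1 lower at that p, with a median of 0.44. Epithelial genes had 0 of 10 higher and 2 lower at an unadjusted p under 0.05, Epcam (-0.70) and Scgb1a1 (-0.75), with a median log2 fold change of -0.43, and summed to 57474 to 100324 CPM in Control and 40519 to 76740 CPM in TTI-101.

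Red cell and adipocyte genes differed in the same direction as the 9 genes and by more. Of 5 tested red cell genes 4 were higher at an unadjusted p under 0.05, with a median log2 fold change of 2.50, Hbb-bs at 61.3 ± 37.2 CPM in Control and 337 ± 289.9 CPM in TTI-101, and a summed level of 58.5 to 264 CPM in Control and 205 to 1587 CPM in TTI-101. Of 5 tested adipocyte genes 4 were higher at that p, with a median of 1.75 and a summed level of 13.9 to 110.1 CPM in Control and 49.5 to 240.1 CPM in TTI-101, while Lep had 0 to 16 counts. The part of blood or fat in the differences of the 9 genes was not tested.

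Promoter windows from RefSeq (GRCm38.p6, 250 bases before to 50 after a start) were found for 5 of the 9 genes, Cd79a, Cd22, Cr2, Fcer2a and Pax5, in 7 windows. Short motifs were searched in both strands. The octamer ATGCAAAT bound by POU2F2 was in 0 of the 7 windows and 1.74% of all 32851, and the STAT motif TTCNNNGAA in 0 of 7 and 8.30% of all. The EBF core CCCNNGGG was in 1 window, that of Cd22, against 13.7% of all, the PU.1 and Spi-B core GAGGAA in 1, that of Cd79a, against 28.3%, and the E-box CAGCTG in 1, of Fcer2a, against 16.3%. These are counts of letters in short windows and bear on no factor.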

How the data were processed

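A provider sequenced paired ends of poly(A) RNA from 8 whole lungs, 4 Control and 4 treated, with a stranded kit. The submitters' processing notes name STAR, DESeq2 and mm10 without versions, and the counting tool and its strand setting are not given in the sources used here. The deposited values are raw counts for each Ensembl gene, beside a gene length. Groups came from the treatment label. The test was run in edgeR 4.0.16 under R 4.3.3 (filterByExpr with a minimum count of 10, TMM, robust quasi-likelihood F-tests, Benjamini-Hochberg over all genes tested). limma 3.58.1 (voom), DESeq2 1.42.0, other scalings and filters, a replicate block, Xist as a covariate and each library left out were the alternatives. Single values were compared by two-sided exact permutation over 70 assignments (scipy 1.17.1, Python 3.11.15), with a prior count of 2 for log2 CPM and 0.5 for ratios. ITAM stretches and ITIM matches came from GENCODE M21 coding exons, and motifs from RefSeq promoters. The fits were tested on simulated data. The 9 genes and the 19 lists were chosen with earlier results of these data known. Named genes were the 9, up to 4 of each list by lowest unadjusted p, Ptprc, genes at or near 0, and the 8 most like the 9. Some genes that this rule names are not reported here.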

Additional observations from a re-analysis of the deposited data

Results flagged for a closer look

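In 6 of 60 groups of 4 libraries, 1 library lay further from the nearest of the others than Dixon's limit allows as a share of the group's range, where chance gives about 3 such groups. Of these, 3 concerned the levels of B cell genes. Cd22 was at 36.3 CPM in TTI-101 2 against 58.9 to 63.3 CPM in the other treated libraries (gap 0.835 of the range). Fcer2a was at 19.5 CPM in TTI-101 2 against 47.7 to 51.5 CPM (gap 0.883). Blk was at 16.5 CPM in Control 1 against 9.59 to 10.3 CPM in the other Control libraries (gap 0.892). The log2 ratio of Pax5 to Cd79a was 0.55 in Control 4 against -0.98 to -0.85 in the other Control libraries (gap 0.918). Outside the 9 genes, Control 1 had 26873509 counts in total against 16446481 to 18220467 in the other Control libraries (gap 0.830), and Control 4 had 5.56% mitochondrial counts against 2.44 to 2.85% (gap 0.867).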

How the results depend on the processing

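The 9 genes kept a positive fold change in 144 of 144 fits, 16 alternatives for each, with no adjusted p under 0.112, and none was called under any alternative. The median log2 fold change was 0.96 (without Control 4) to 1.54 (without Control 1) as single libraries were left out and 1.19 to 1.28 otherwise, and the number under an unadjusted p of 0.05 was 6 to 9. The share of all genes higher at that p was 3.02% as reported and 1.92% without Control 4, and was not taken for other settings. The number of genes without overlap between groups, 1 as reported, was 2 with DESeq2's own scaling, with its size factors in edgeR and with at least 10 counts in every library, and 1 to 8 as single libraries were left out (8 without Control 1 or without TTI-101 2, 2 without TTI-101 4). The share of all genes higher without overlap was 1.53% as reported, 5.43% without Control 1 and 7.63% without TTI-101 2. It was not taken for the other settings, so their counts describe the members alone. Over all genes, 0 were called as reported, 4 with DESeq2, 1 with Xist as a covariate, and 0 to 1 with single libraries left out (1 without Control 1 and without TTI-101 3). The median log2 ratio difference of 0.74 relative to Ptprc was 0.33 relative to Cd3e and 0.63 to 0.88 with libraries left out. That of -0.19 relative to Cd79a was -0.61 relative to Ms4a1 and -0.30 to -0.095 with libraries left out. The causes were not tested. The order of levels was the same with library totals, and 49 genes of the lists were under 0.05 in edgeR and 62 in DESeq2.

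Same-numbered libraries deviated together with r of 0.39, 0.08, 0.16 and 0.07, and differently numbered ones with r of -0.42 to 0.17. Not every library correlated best with its own number. Replicate 1 was the deepest library in both groups, and Xist followed the numbers. Whether the numbers pair the mice cannot be settled from so few libraries. With the replicate block the median log2 fold change was 1.28, 0 of the 9 genes were called, 9 were under an unadjusted p of 0.05 and 1 had no overlap. The share of all genes under that p was not taken for this fit. Having 4 libraries a group, and Control counts as low as 23 for Cr2, limited the precision.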
